A study of Homo sapiens with 12 samples.

Results

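PC3 is a human prostate cancer line from a bone metastasis. What wild-type ETV4 changed in it was read from 2 libraries labelled ETV4WT against 2 eGFP libraries, which are 4 of the 12 samples of the series. Polyadenylated RNA was sequenced from PC3 cells and from 22Rv1 cells, a second prostate cancer line, sorted as live, eGFP-positive cells 1 week after infection. The PC3 cells carried ETV4WT-IRES-eGFP, ETV4AAA-IRES-eGFP (a mutated ETV4) or IRES-eGFP alone, in each case as lentivirus from an MSCV-IRES-GFP vector, so by the labels the ETV4WT cells differ from the eGFP cells by the ETV4 insert, and all cells carry eGFP. The labels name no clone and do not tie the replicates to separate cultures. The p-values then measure only the spread between these samples, which may be technical. The count table holds 58302 genes, and the 23238 that passed a filter on low counts were tested.

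ETV4 is a PEA3-type ETS transcription factor, a relative of ETV1 and ETV5, which binds a GGAA core and is known downstream of receptor tyrosine kinases and ERK, where it switches on matrix proteases and invasion genes. The prostate changes in which it is known are gene fusions that drive its expression. A pathway that recurs in the results is the integrated stress response, in which kinases that sense amino acid shortage, misfolded protein in the endoplasmic reticulum, viral RNA or lack of heme phosphorylate the initiation factor eIF2. General translation then slows while the factor ATF4 is made, and ATF4 with its partners turns on amino acid import and synthesis, tRNA charging and, later, cell death genes.

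ETV4 itself, at chromosome 17 from 43527844 to 43579620 (GENCODE 29 on GRCh38), had 215 and 112 CPM in the libraries labelled ETV4WT, against 116 and 126 CPM in the eGFP libraries. Only replicate 1 of the libraries labelled ETV4WT therefore stood above both eGFP libraries, and the difference (log2 0.43 ± 0.33, edgeR adjusted p = 0.384) did not pass. Without ETV4WT replicate 1 the log2 change was -0.12, so the transcript counts, which do not separate inserted from endogenous ETV4, bear out the label in 1 of 2 libraries, and every direction below is one of the libraries labelled ETV4WT. ETV5 had 268 and 301 CPM in the libraries labelled ETV4WT, against 167 and 168 CPM in the eGFP libraries and rose (log2 0.76 ± 0.12), whereas ETV1, with 63.3 and 76.6 CPM with the ETV4WT label and 80.0 and 77.8 CPM with eGFP, did not pass (log2 -0.17 ± 0.13).

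The 4 libraries held 47399414 to 50699208 counts, of which 4.89% and 5.14% were mitochondrial in the libraries labelled ETV4WT and 4.48% and 4.47% in the eGFP libraries. The libraries labelled ETV4WT differed more from each other than the eGFP libraries did: the chi-square per degree of freedom between replicates was 63.2 against 3.54, where 1 is counting error. It was 66.0 in the PC3 ETV4AAA group and 24.0 to 33.0 in the 22Rv1 groups. The PC3 eGFP libraries were thus the closest pair of the series, and a wide spread was not particular to ETV4WT. Of 11056 genes with a mean of at least 5 CPM in either group, 337 were at least 2-fold apart between the libraries labelled ETV4WT and 0 between the eGFP libraries. The genes known from PC3 cells, CD44, CAV1, CAV2, AXL, MET, VIM and PLAU, summed to 1739 and 1982 CPM in the libraries labelled ETV4WT, against 1698 and 1673 CPM in the eGFP libraries, and 3 of 7 were higher and 0 lower. KLK3, the luminal gene that PC3 lacks, was at 0 counts. Immune cell markers summed to 1.30 and 1.27 CPM in the libraries labelled ETV4WT, against 0.946 and 0.903 CPM in the eGFP libraries, and 1 of the 4 tested was higher. Fibroblast and endothelial markers summed to 444 and 368 CPM in the libraries labelled ETV4WT, against 425 and 432 CPM in the eGFP libraries, with 1 of 10 tested higher and 2 lower.

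A further set of genes moved with the label and stands beside many results below. Parts of the CTNNA1, STAT3 and STAT5A-STAT5B loci are known to be homozygously deleted in PC3, so their transcripts are expected to be low in this line. CTNNA1, which encodes alpha-catenin, nevertheless had 29.4 and 28.3 CPM in the libraries labelled ETV4WT, against 6.44 and 6 CPM in the eGFP libraries. STAT3, a cytokine-activated transcription factor, had 10.3 and 11.4 CPM with the ETV4WT label and 1.27 and 1.38 CPM with eGFP. Its relative STAT5B had 7.42 and 7.46 CPM with the ETV4WT label and 1.01 and 1.27 CPM with eGFP. All 3 genes were higher in both libraries labelled ETV4WT than in either eGFP library, with log2 changes of 2.21 ± 0.12 for CTNNA1, 3.04 ± 0.15 for STAT3 and 2.71 ± 0.17 for STAT5B. STAT5A, the remaining member, was at 0 counts in all but 1 of the 4 libraries. The 4 genes summed to 47.1 and 47.2 CPM in the libraries labelled ETV4WT, against 8.72 and 8.64 CPM in the eGFP libraries, and to 11.9 and 10.5 CPM in the libraries labelled ETV4AAA.

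Genes known from HEK293 cells, a human embryonic kidney line that expresses neuronal genes, moved in the same direction. IRS4, an insulin receptor substrate, had 80.1 and 84.3 CPM in the libraries labelled ETV4WT, against 12.6 and 13.1 CPM in the eGFP libraries. LIN28B, which blocks let-7 maturation, had 24.3 and 30.7 CPM with the ETV4WT label and 4.13 and 4.38 CPM with eGFP. The neurofilament gene NEFM had 40.4 and 45.9 CPM with the ETV4WT label and 4.71 and 4.53 CPM with eGFP. INA, another intermediate filament gene of neurons, had 3.14 and 3.86 CPM with the ETV4WT label and 0.624 and 0.731 CPM with eGFP. The zinc finger gene ZIC2 had 6.24 and 7.04 CPM with the ETV4WT label and 1.49 and 1.33 CPM with eGFP, while the light neurofilament gene NEFL was lower, with 62.3 and 62.4 CPM with the ETV4WT label and 165 and 170.3 CPM with eGFP. The list of 6 had 5 members higher and 1 lower (median log2 2.52), summed to 216 and 234 CPM in the libraries labelled ETV4WT, against 189 and 194 CPM in the eGFP libraries, and had no member at 0. Both lists were written after these values were seen. Both replicates carried these genes at like levels, so no result could be recomputed without them, and their part in the results was not tested. Whether the libraries labelled ETV4WT hold RNA of another cell line, or are of another origin than their label says, was not tested either, and this bears on every PC3 difference below. The eGFP libraries also held transcripts of CTNNA1, STAT3, STAT5B and the HEK293 list, and whether they hold other RNA was not tested. The line that packaged the lentivirus was not given in the sources used here.

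**Figure D1:**
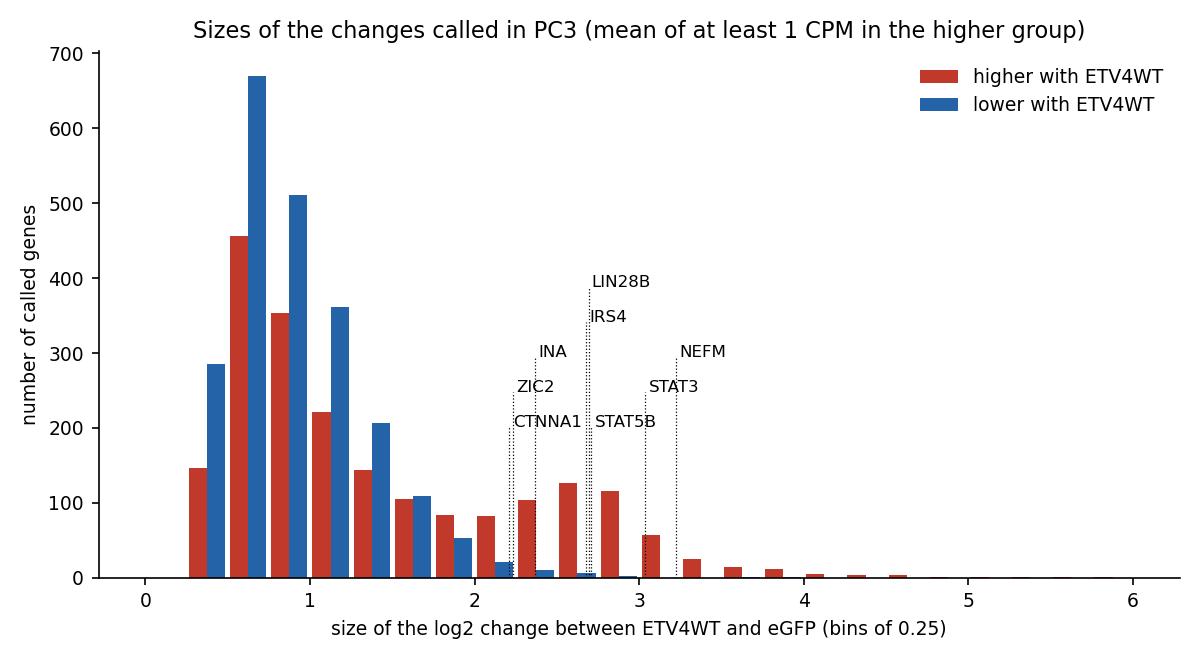
Numbers of called PC3 genes (vertical axis) by size of the log2 change between the libraries labelled ETV4WT and the eGFP libraries (horizontal axis, bins of 0.25), for genes with a mean of at least 1 CPM in the higher group; red bars are genes higher with ETV4WT, blue bars genes lower, and dotted lines mark the higher genes of the deleted-locus and HEK293 lists. Higher genes number 456 at log2 0.5 to 0.75, 83 at 2.0 to 2.25 and 127 at 2.5 to 2.75, while lower genes number 670, 21 and 6 in the same bins.

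Of the 23238 genes tested, 5434 were called at a Benjamini-Hochberg adjusted p under 0.05 in edgeR's quasi-likelihood test, which is 23.4%. The 2958 higher genes are 12.7% and the 2476 lower genes 10.7% of those tested, and these shares are the background for every list below. At least 2-fold, 1977 were higher (8.51%) and 995 lower (4.28%), and at least 4-fold 1155 were higher and 111 lower. The libraries of the groups did not overlap for 14878 of the 23238 genes tested, called or not, and for each of the 5434 called genes. A statement that the libraries of a called gene did not overlap therefore describes its values and adds nothing to its call. Higher genes were often scarce: 1139 of them and 302 of the lower genes had a mean under 1 CPM over both groups. As a share of summed mean CPM, the higher genes held 12.1% in the libraries labelled ETV4WT and 6.46% in the eGFP libraries, and the lower genes 11.3% and 17.2%. The balance of directions moved with the scaling: with upper-quartile factors, which shifted all log2 changes by a median of 0.148, 3724 genes were higher and 1661 lower. Leaving out each library in turn kept 1483 higher and 752 lower genes in every case, and without eGFP replicate 2 alone 1684 were higher and 869 lower.

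The sizes of the rises fell into a pair of humps, as the histogram of log2 changes shows. Among the 2072 higher genes with a mean of at least 1 CPM in the libraries labelled ETV4WT, 1177 (56.8%) lay between log2 0.25 and 1.25 and 404 (19.5%) between log2 2.25 and 3.25. The 404 genes had a median of 3.29 CPM in the libraries labelled ETV4WT and 0.506 CPM in the eGFP libraries. Their median log2 change was 0.439 in the libraries labelled ETV4AAA against the same eGFP libraries, and -0.039 in 22Rv1. The ratio of replicate 1 to replicate 2 in the libraries labelled ETV4WT had a median of 0.930 over these genes and 0.850 over the 1177. Of the genes of the deleted-locus and HEK293 lists, STAT3, STAT5B, IRS4, LIN28B, NEFM and INA lay in the upper range, and CTNNA1 and ZIC2 just under it. The bounds of both ranges were chosen after the histogram was seen.

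**Figure D2:**
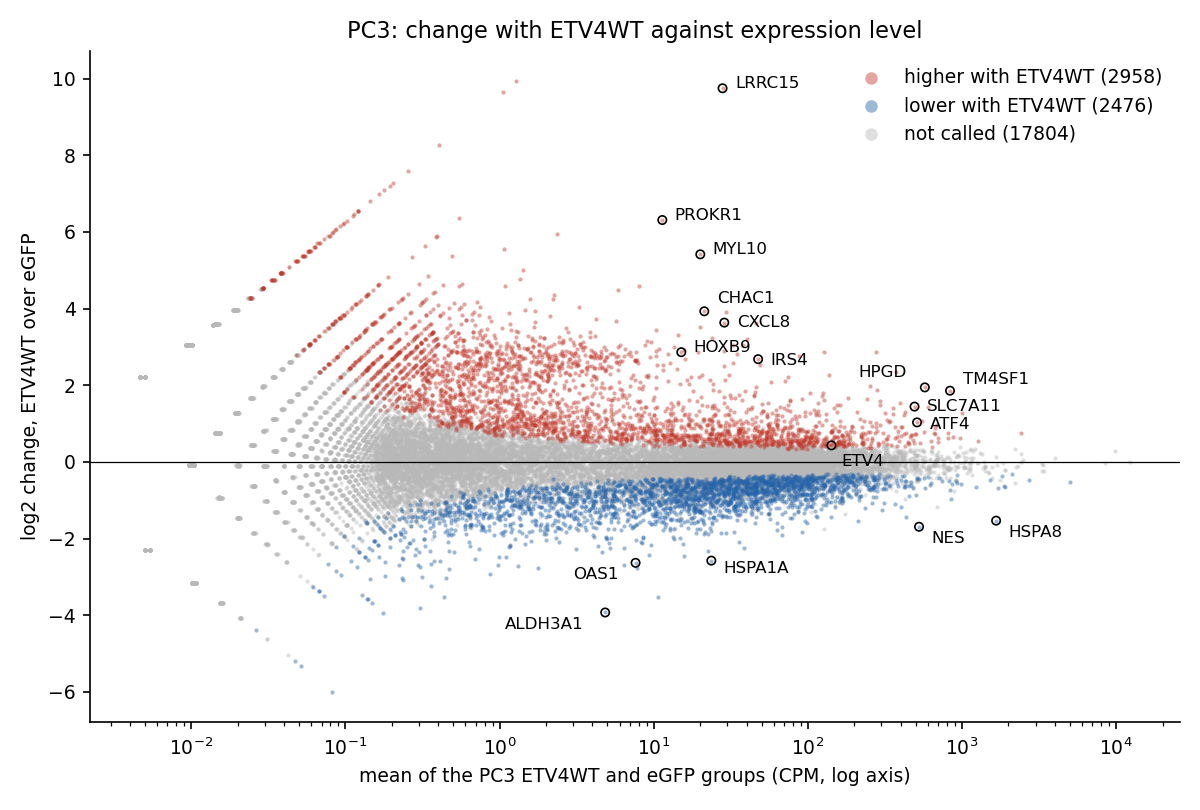
Log2 change of ETV4WT over eGFP in PC3 (vertical axis) against the mean of both groups in CPM (horizontal axis, log scale), 1 point per tested gene, red where higher, blue where lower and grey where not called; circled genes are named. LRRC15 stands at log2 9.75, and HSPA8 is the most abundant gene that was at least 2-fold lower, at log2 -1.53.

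The largest rises came from genes close to silent with eGFP. LRRC15, a membrane protein of activated fibroblasts with leucine-rich repeats, had 60.1 and 51.6 CPM in the libraries labelled ETV4WT, against 0.0403 and 0.086 CPM in the eGFP libraries. PROKR1, a receptor for prokineticins at chromosome 2 from 68643589 to 68658247, had 20.4 and 24.5 CPM with the ETV4WT label and 0.302 and 0.258 CPM with eGFP. MYL10, a myosin light chain, had 45.2 and 33.2 CPM with the ETV4WT label and 0.846 and 0.989 CPM with eGFP. PDE2A, which breaks down cyclic AMP and cyclic GMP, had 17.6 and 13.2 CPM with the ETV4WT label and 0.684 and 0.602 CPM with eGFP. These 4 genes were high in both libraries labelled ETV4WT and within 1 CPM of 0 in both eGFP libraries, with log2 changes of 9.75 ± 0.36, 6.31 ± 0.26, 5.41 ± 0.26 and 4.58 ± 0.27 in that order. The chloride channel gene BEST1 had 6.17 and 6.25 CPM with the ETV4WT label and 0.362 and 0.387 CPM with eGFP (log2 4.04 ± 0.26). The transglutaminase TGM2, which crosslinks proteins, had 13 and 8 CPM with the ETV4WT label and 0.866 and 0.774 CPM with eGFP (log2 3.67 ± 0.30). In the libraries labelled ETV4AAA, compared with the same eGFP libraries, the log2 changes were 9.95 for LRRC15, 5.08 for PROKR1, 5.54 for MYL10, 4.21 for PDE2A, 3.56 for TGM2 and 0.31 for BEST1.

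The largest falls were smaller than the largest rises. ALDH3A1, an aldehyde dehydrogenase, had 0.818 and 0.362 CPM in the libraries labelled ETV4WT, against 8.47 and 9.71 CPM in the eGFP libraries (log2 -3.93 ± 0.33). The ligand WNT9A had 2.03 and 1.41 CPM with the ETV4WT label and 10.0 and 12.3 CPM with eGFP (log2 -2.7 ± 0.31). FGFBP1, which releases fibroblast growth factors from the matrix, had 5.43 and 4.18 CPM with the ETV4WT label and 24.8 and 28.2 CPM with eGFP (log2 -2.46 ± 0.20). DDN, which encodes dendrin, and CYP1B1, a cytochrome P450 that oxidises oestrogens and aryl hydrocarbons, had log2 changes of -2.32 ± 0.20 and -2.25 ± 0.17, with CYP1B1 at 12.4 and 14.4 CPM with the ETV4WT label and 64.2 and 63.9 CPM with eGFP. For each of these 5 genes both libraries labelled ETV4WT were below both eGFP libraries, as the rule that picked them required.

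The abundant genes that changed at least 2-fold included surface proteins that rose. TM4SF1, a tetraspanin-like protein of migrating cells at chromosome 3 from 149369022 to 149377865, had 1272 and 1346 CPM in the libraries labelled ETV4WT, against 374 and 348 CPM in the eGFP libraries (log2 1.86 ± 0.13). HPGD, which inactivates prostaglandins, had 815 and 1006 CPM with the ETV4WT label and 241 and 232 CPM with eGFP (log2 1.94 ± 0.17). CD55, which shields cells from complement, had 788 and 957 CPM with the ETV4WT label and 328 and 324 CPM with eGFP (log2 1.42 ± 0.17). The secreted glycoprotein FSTL1 (log2 1.27 ± 0.14) and the heparan sulphate proteoglycan SDC1 (log2 1.24 ± 0.22) also rose, SDC1 with 695 and 489 CPM with the ETV4WT label and 245 and 258 CPM with eGFP. NES, the intermediate filament gene nestin, fell, with 272 and 225 CPM with the ETV4WT label and 796 and 811 CPM with eGFP (log2 -1.69 ± 0.17). All 6 genes had libraries that did not overlap between the groups, as the rule that picked them required.

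Nearly all genes of the integrated stress response rose. Of its 20 factors and effectors 18 were higher (90%) and 1 lower (5%), against 12.7% and 10.7% of all genes, with a median log2 change of 1.44 against 0.0, and 14 to 18 members were higher when single libraries were left out. ATF4, the central factor, at chromosome 22 from 39519695 to 39522685, had 713 and 658 CPM in the libraries labelled ETV4WT, against 339.8 and 331 CPM in the eGFP libraries. DDIT3, which encodes the death-linked factor CHOP, had 54.2 and 48.2 CPM with the ETV4WT label and 15.4 and 16.7 CPM with eGFP. ATF3, an ATF4-induced factor at chromosome 1 from 212565334 to 212620777, had 34.9 and 38.9 CPM with the ETV4WT label and 3.54 and 2.88 CPM with eGFP. CEBPG, a heterodimer partner of ATF4, had 266 and 325 CPM with the ETV4WT label and 120.2 and 121 CPM with eGFP. Both libraries labelled ETV4WT stood above both eGFP libraries for these 4 factors, and the log2 changes were 1.03 ± 0.12 for ATF4, 1.67 ± 0.18 for DDIT3, 3.52 ± 0.15 for ATF3 and 1.29 ± 0.13 for CEBPG (edgeR adjusted p at most 0.000119). ATF5, a related factor, was the 1 member lower, with 35.1 and 29.5 CPM with the ETV4WT label and 47 and 48.5 CPM with eGFP (log2 -0.56 ± 0.14, edgeR adjusted p = 0.0115), a call that did not hold in every fit with a library left out.

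Effectors of the response rose as well. TRIB3, a pseudokinase that restrains ATF4 and AKT, had 437 and 366 CPM in the libraries labelled ETV4WT, against 102 and 101 CPM in the eGFP libraries (log2 1.99 ± 0.18). CHAC1, which degrades glutathione, had 50.5 and 29.4 CPM with the ETV4WT label and 2.6 and 2.64 CPM with eGFP (log2 3.93 ± 0.45). SESN2, an amino acid sensor that restrains mTORC1, had 99.98 and 71.2 CPM with the ETV4WT label and 6.86 and 6.92 CPM with eGFP (log2 3.63 ± 0.31). DDIT4, which also restrains mTORC1, had 31.9 and 15.9 CPM with the ETV4WT label and 2.9 and 3.07 CPM with eGFP (log2 3.0 ± 0.46). INHBE, an inhibin subunit secreted under stress, had 58.2 and 52.5 CPM with the ETV4WT label and 3.62 and 3.76 CPM with eGFP (log2 3.91 ± 0.26). For each of these effectors both libraries labelled ETV4WT were above both eGFP libraries, though replicate 1 stood above replicate 2 for each, most for DDIT4 and CHAC1. The eIF2 kinase and phosphatase list had 1 of 6 members higher and 0 lower: PPP1R15A, the subunit that brings a phosphatase to eIF2, had 79.5 and 65.9 CPM with the ETV4WT label and 28.1 and 29.8 CPM with eGFP (log2 1.33 ± 0.17). In the libraries labelled ETV4AAA the median log2 change over the 20 factors and effectors was 0.503, and in 22Rv1 with ETV4WT it was -0.464, with 0 higher and 5 lower there.

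FGF21, a hormone that ATF4 is known to induce, was picked after its values were seen. Among the 16 called factors and effectors with a RefSeq promoter, FGF21 alone held there the letters of the C/EBP-ATF response element. It had 0.78 and 0.744 CPM with the ETV4WT label and 0.0201 and 0 CPM with eGFP, which is 1 count in the eGFP libraries together. Its promoter, 250 bases before to 50 after the RefSeq start at chr19:48755274-48755573 on GRCh38.p14, plus strand, carries the match shown in capitals.
FGF21: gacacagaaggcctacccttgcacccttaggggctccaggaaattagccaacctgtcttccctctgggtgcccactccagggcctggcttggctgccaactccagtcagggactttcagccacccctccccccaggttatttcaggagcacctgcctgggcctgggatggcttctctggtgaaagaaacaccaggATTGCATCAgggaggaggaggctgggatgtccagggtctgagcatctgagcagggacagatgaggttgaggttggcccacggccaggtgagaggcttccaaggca
The match to TGATGNAAT, searched on both strands, begins 55 bases before the start. It occurred in 1.16% of the 1980 promoters of higher genes, 0.223% of the 1793 promoters of lower genes, 0.56% of the 13927 promoters of tested genes and 1.02% of all 27305 promoters, so few higher genes hold these letters in this window.

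Many of the cytosolic enzymes that charge tRNA rose. Of 20 cytosolic aminoacyl-tRNA synthetases 12 were higher and 2 lower (60% and 10%; median log2 0.504), though 7, 7 and 6 higher without ETV4WT replicate 2, eGFP replicate 1 and eGFP replicate 2, while of 17 mitochondrial ones 0 were higher and 4 lower (median -0.267). GARS, for glycine, had 552 and 654 CPM in the libraries labelled ETV4WT, against 246 and 245 CPM in the eGFP libraries (log2 1.29 ± 0.12). CARS, for cysteine, had 173 and 157 CPM with the ETV4WT label and 71.6 and 69.9 CPM with eGFP (log2 1.22 ± 0.13). WARS, for tryptophan, had 914 and 914 CPM with the ETV4WT label and 474 and 466 CPM with eGFP (log2 0.96 ± 0.11). FARSA, a subunit of the phenylalanine enzyme, and HARS, for histidine, were the 2 lower, with log2 changes of -1.13 ± 0.35 and -0.49 ± 0.12, and neither call held with every library left out in turn. FARSA's replicates differed by about as much as its groups, at 109 and 55.2 CPM with the ETV4WT label and 167 and 192 CPM with eGFP.

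Genes of amino acid synthesis and uptake changed in both directions, more often upwards. Of 14 synthesis enzymes 5 were higher and 2 lower (median log2 0.276), of 14 one-carbon and folate enzymes 4 and 3 (0.285), and of 24 amino acid transporters 9 and 4 (0.206). The first 2 medians were -0.0766 and -0.0106 without ETV4WT replicate 1. The 5 higher synthesis enzymes were 3 without ETV4WT replicate 1 or either eGFP library. ASNS, which makes asparagine, had 12.6 and 11.9 CPM in the libraries labelled ETV4WT, against 1.59 and 1.74 CPM in the eGFP libraries (log2 2.88 ± 0.23). PSAT1, of serine synthesis, had 469 and 575 CPM with the ETV4WT label and 198 and 193 CPM with eGFP (log2 1.42 ± 0.13). CTH, which makes cysteine from cystathionine, had 111 and 135 CPM with the ETV4WT label and 27.2 and 25.8 CPM with eGFP (log2 2.21 ± 0.14), while ASS1, of arginine synthesis, fell, with 23.7 and 15.2 CPM with the ETV4WT label and 45.5 and 49.3 CPM with eGFP (log2 -1.29 ± 0.23). The mitochondrial folate enzymes MTHFD2 and ALDH1L2 rose by log2 1.54 ± 0.14 and 2.83 ± 0.19, ALDH1L2 with 18.6 and 24.6 CPM with the ETV4WT label and 3.1 and 2.99 CPM with eGFP. Among transporters the cystine importer SLC7A11 had 615 and 822 CPM with the ETV4WT label and 275 and 254 CPM with eGFP (log2 1.44 ± 0.14) and the neutral amino acid carrier SLC1A4 had 73.5 and 76.3 CPM with the ETV4WT label and 25.8 and 27.2 CPM with eGFP (log2 1.5 ± 0.13). SLC7A5, the main leucine importer, did not pass, with 577 and 380.4 CPM with the ETV4WT label and 277 and 304 CPM with eGFP (edgeR adjusted p = 0.0798).

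The endoplasmic reticulum arms that lie outside ATF4 changed less evenly. Of 19 genes of the IRE1-XBP1 branch, degradation and translocation 6 were higher and 2 lower (median log2 0.0271), and of 15 reticulum chaperones 2 and 2. ERN1, which encodes the sensor IRE1, had 58 and 64.5 CPM in the libraries labelled ETV4WT, against 17.6 and 16.6 CPM in the eGFP libraries (log2 1.84 ± 0.15). XBP1, the factor whose message IRE1 splices, had 177 and 200.5 CPM with the ETV4WT label and 56 and 58 CPM with eGFP (log2 1.73 ± 0.12). The sensor ATF6 rose by log2 0.78 ± 0.14 and the chaperone HSPA5, which encodes BiP, by log2 0.40 ± 0.11, with HSPA5 at 668 and 778 CPM with the ETV4WT label and 549 and 551 CPM with eGFP, while the calcium-binding chaperone CALR fell (log2 -0.55 ± 0.14). The calls of CALR and HSPA5 did not hold with every library left out in turn. Of 17 autophagy and lysosome genes 4 were higher and 4 lower: the autophagosome protein MAP1LC3B had 279.6 and 347 CPM with the ETV4WT label and 154 and 146 CPM with eGFP (log2 1.06 ± 0.15). The cargo receptor SQSTM1 had 76.2 and 48.3 CPM with the ETV4WT label and 128 and 144 CPM with eGFP (log2 -1.13 ± 0.28). Of the 8 autophagy and lysosome calls only that of MAP1LC3B held with every library left out in turn. Of 17 mTOR pathway regulators 3 were higher, with SESN2 and DDIT4 among them, and 2 lower.

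**Figure D3:**
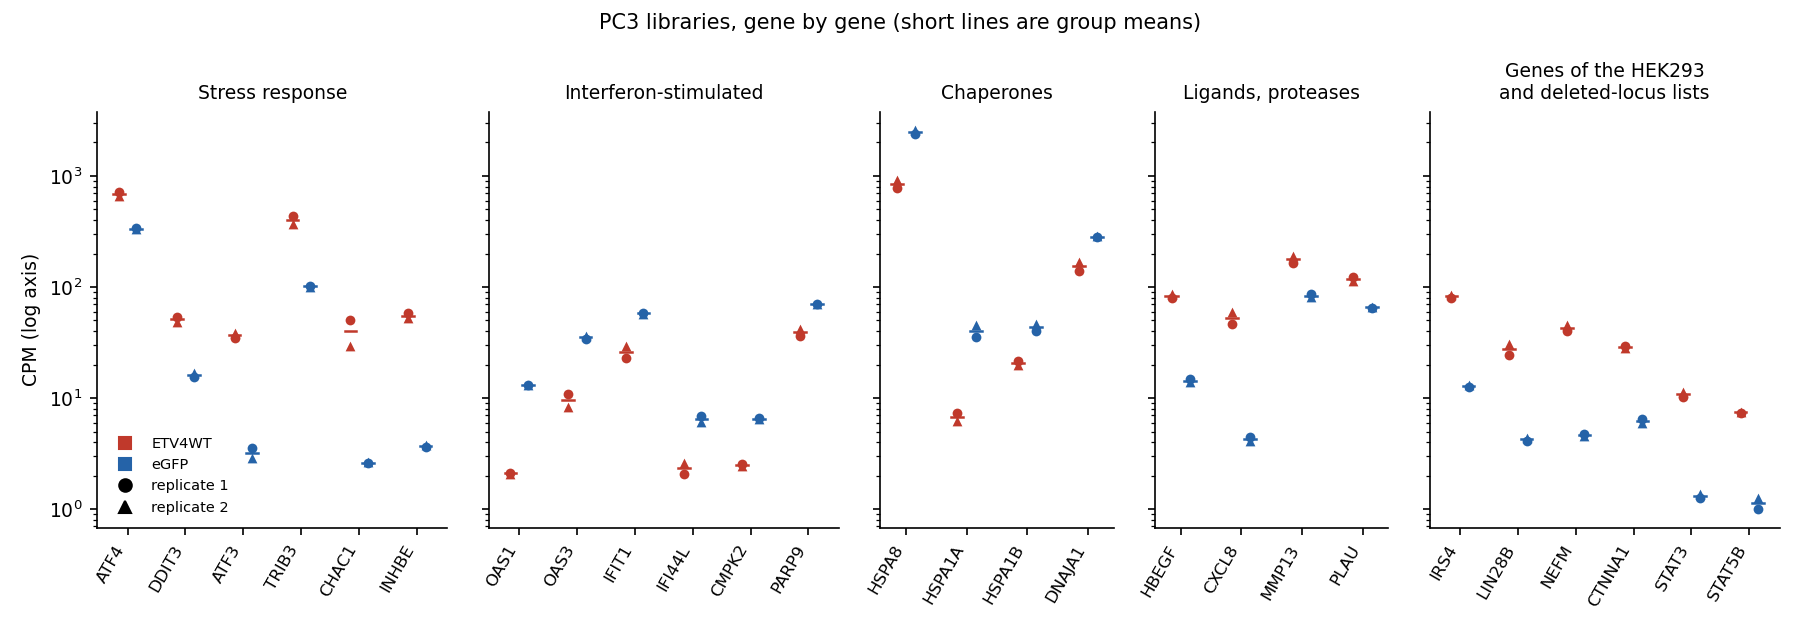
Level of each named gene in CPM (vertical axis, log scale) in the libraries labelled ETV4WT (red) and the eGFP libraries (blue); circles are replicate 1, triangles replicate 2 and short lines group means. Stress response genes, ligands, proteases and the genes of the last panel stand higher in red in both replicates, while interferon-stimulated genes and chaperones stand lower; HSPA8 is at 787 and 921 CPM with the ETV4WT label and 2375 and 2568 CPM with eGFP.

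Many interferon-stimulated genes, which encode antiviral effectors and are switched on by interferon signalling, were lower, though more did not pass. Of 33 tested effectors 14 were lower (42.4%) and 0 higher, against 10.7% and 12.7% of all genes, and the median log2 change was -0.503. Without eGFP replicate 1 or eGFP replicate 2 the count of lower members was 9. OAS1, which senses double-stranded RNA and activates RNase L, had 2.14 and 2.09 CPM in the libraries labelled ETV4WT, against 13.1 and 13.2 CPM in the eGFP libraries (log2 -2.63 ± 0.25). OAS3, an OAS1 relative, had 10.8 and 8.32 CPM with the ETV4WT label and 34.2 and 36.5 CPM with eGFP (log2 -1.89 ± 0.18). IFIT1, which binds viral RNA ends, had 22.8 and 29.3 CPM with the ETV4WT label and 58.8 and 57.2 CPM with eGFP (log2 -1.16 ± 0.17). IFI44L had 2.08 and 2.59 CPM with the ETV4WT label and 6.95 and 6.04 CPM with eGFP (log2 -1.48 ± 0.20). CMPK2, a mitochondrial nucleotide kinase, had 2.56 and 2.47 CPM with the ETV4WT label and 6.64 and 6.47 CPM with eGFP (log2 -1.38 ± 0.16). PARP9 had 36.4 and 42.2 CPM with the ETV4WT label and 69.9 and 70.1 CPM with eGFP (log2 -0.83 ± 0.13). For all 6 genes both libraries labelled ETV4WT were below both eGFP libraries. In the libraries labelled ETV4AAA, compared with the same eGFP libraries, 6 of the 33 effectors were lower and 0 higher (median log2 -0.332).

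The promoters of the 3 effectors printed here show the interferon-stimulated response element, the letters GAAANNGAA on either strand, in capitals. They run from 250 bases before to 50 bases after the RefSeq start on GRCh38.p14: OAS3 at chr12:112938224-112938523, IFIT1 at chr10:89392373-89392672 and IFI44L at chr1:78620198-78620497, each on the plus strand.
OAS3: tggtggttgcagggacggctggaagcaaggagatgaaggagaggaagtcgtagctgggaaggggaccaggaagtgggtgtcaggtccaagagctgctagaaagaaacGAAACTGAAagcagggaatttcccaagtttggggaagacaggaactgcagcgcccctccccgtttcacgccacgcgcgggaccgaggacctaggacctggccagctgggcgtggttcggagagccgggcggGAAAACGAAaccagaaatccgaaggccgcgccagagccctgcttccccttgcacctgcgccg
IFIT1: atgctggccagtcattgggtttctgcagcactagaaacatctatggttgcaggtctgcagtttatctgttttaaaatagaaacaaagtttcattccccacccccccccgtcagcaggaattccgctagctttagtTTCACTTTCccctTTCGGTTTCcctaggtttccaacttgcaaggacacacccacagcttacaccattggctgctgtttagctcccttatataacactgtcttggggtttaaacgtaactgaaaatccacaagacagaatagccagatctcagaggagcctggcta
IFI44L: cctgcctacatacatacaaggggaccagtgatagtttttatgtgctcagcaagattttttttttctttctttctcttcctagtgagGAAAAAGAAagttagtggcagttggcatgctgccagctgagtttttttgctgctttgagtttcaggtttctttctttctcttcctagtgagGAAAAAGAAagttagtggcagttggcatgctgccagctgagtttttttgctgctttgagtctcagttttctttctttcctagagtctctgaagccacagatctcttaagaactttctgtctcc
Each of the 3 holds 2 matches. Of the 11 lower effectors with a RefSeq promoter 7 held a match (63.6%), against 8.29% of all promoters and 6.61% of those of tested genes. These genes are known interferon targets, so the match describes the group and not the change.

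Other immune lists moved less or otherwise. Of 17 nucleic acid sensors and interferon signalling genes 2 were higher and 4 lower (median log2 -0.517). The DNA sensor CGAS had 26.9 and 31.7 CPM in the libraries labelled ETV4WT, against 51.7 and 52.9 CPM in the eGFP libraries (log2 -0.83 ± 0.16). The factor IRF1 had 2.53 and 1.97 CPM with the ETV4WT label and 4.83 and 5.16 CPM with eGFP (log2 -1.15 ± 0.18). Of 15 MHC class I presentation genes 3 were higher and 1 lower: HLA-B had 4.5 and 3.12 CPM with the ETV4WT label and 0.584 and 0.731 CPM with eGFP (log2 2.53 ± 0.27) and HLA-C had 8.03 and 5.83 CPM with the ETV4WT label and 1.65 and 1.42 CPM with eGFP (log2 2.17 ± 0.22), where reads of these near-identical genes may be assigned to either. Of 16 cytokines and chemokines 3 were higher and 2 lower, of 13 NF-kB factors and feedback genes 0 and 3, of 50 interleukins and their receptors 5 and 6, and of 10 prostaglandin enzymes and receptors 2 and 2. The interleukin counts were 2 higher without ETV4WT replicate 2, and 3 higher and 3 lower without eGFP replicate 2.

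Cytosolic chaperones, which heat shock factor HSF1 is known to induce, were lower for many members. Of 17 tested 8 were lower (47.1%) and 1 higher, with a median log2 change of -0.638, and 5 were lower without eGFP replicate 2. HSPA8, the constitutive HSP70 at chromosome 11 from 123057489 to 123063230, had 787 and 921 CPM in the libraries labelled ETV4WT, against 2375 and 2568 CPM in the eGFP libraries (log2 -1.53 ± 0.15). The inducible HSP70 genes HSPA1A and HSPA1B had log2 changes of -2.58 ± 0.26 and -1.07 ± 0.17, with HSPA1A at 7.4 and 6.17 CPM with the ETV4WT label and 35.5 and 45.4 CPM with eGFP. These copies are near-identical, and their reads may be assigned to either. DNAJA1, a co-chaperone of HSP70, had 138 and 169 CPM with the ETV4WT label and 279 and 289 CPM with eGFP (log2 -0.89 ± 0.15). Both libraries labelled ETV4WT were below both eGFP libraries for each of these 4 genes. The list also holds HSPD1, the mitochondrial HSP60, although it is named for cytosolic chaperones. HSPD1 did not pass, with 1565 and 1968 CPM with the ETV4WT label and 2038 and 2063 CPM with eGFP (edgeR adjusted p = 0.326). Of 8 CCT chaperonin subunits 2 were lower and 0 higher.

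The heat shock element, searched as GAANNTTC, was in the promoters of 5 of the 9 called chaperones (55.6%), against 6.87% of all promoters and 5.08% of those of tested genes. 1 of the 5 is HSPB8, a small heat shock protein and the 1 chaperone higher, at 0.13 and 0.241 CPM with the ETV4WT label and 0 and 0.0215 CPM with eGFP, which is 1 count in the eGFP libraries together. No share was taken for the uncalled chaperones, so the matches describe the group and not the change. HSPA8 and DNAJA1 are shown with their matches in capitals, 2 in each, at chr11:123062087-123062386 on the minus strand and chr9:33025023-33025322 on the plus strand.
HSPA8: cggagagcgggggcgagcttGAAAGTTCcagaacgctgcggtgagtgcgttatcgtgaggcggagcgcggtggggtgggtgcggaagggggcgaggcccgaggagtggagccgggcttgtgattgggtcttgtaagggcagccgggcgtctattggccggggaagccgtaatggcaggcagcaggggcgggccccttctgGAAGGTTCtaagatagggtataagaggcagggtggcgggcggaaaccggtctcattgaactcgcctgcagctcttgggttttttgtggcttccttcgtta
DNAJA1: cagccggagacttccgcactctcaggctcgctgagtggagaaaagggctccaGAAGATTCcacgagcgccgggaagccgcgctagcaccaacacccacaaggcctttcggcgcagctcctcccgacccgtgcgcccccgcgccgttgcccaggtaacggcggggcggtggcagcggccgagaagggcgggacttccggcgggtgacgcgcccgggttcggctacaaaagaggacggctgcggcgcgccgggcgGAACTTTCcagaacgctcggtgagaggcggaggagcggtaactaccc

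Genes of the EGF receptor and ERK pathway moved both ways. Of 11 EGF ligands and ERBB receptors 3 were higher and 2 lower, of 16 ERK feedback phosphatases and inhibitors 6 and 3 (median log2 0.185), and of 18 immediate early factors 6 and 2. HBEGF, a membrane-anchored EGF receptor ligand, had 80.3 and 86.7 CPM in the libraries labelled ETV4WT, against 14.8 and 14 CPM in the eGFP libraries (log2 2.53 ± 0.16), while the receptor EGFR had 33.8 and 38.7 CPM with the ETV4WT label and 55.8 and 57 CPM with eGFP (log2 -0.64 ± 0.14). ERRFI1, which inhibits EGFR, had 556 and 699 CPM with the ETV4WT label and 124 and 122 CPM with eGFP (log2 2.35 ± 0.14). Feedback genes that ERK is known to induce rose, SPRY4 with 445 and 437 CPM with the ETV4WT label and 205 and 208 CPM with eGFP (log2 1.09 ± 0.14), DUSP5 with 116 and 115 CPM with the ETV4WT label and 52.4 and 53.1 CPM with eGFP (log2 1.13 ± 0.12) and DUSP6 with 112 and 124 CPM with the ETV4WT label and 75.5 and 73.1 CPM with eGFP (log2 0.66 ± 0.12). EGR1 had 4.48 and 4.06 CPM with the ETV4WT label and 0.242 and 0.172 CPM with eGFP (log2 4.34 ± 0.23) and JUN had 124 and 105 CPM with the ETV4WT label and 37.1 and 39.1 CPM with eGFP (log2 1.58 ± 0.17). Both were higher in each library labelled ETV4WT than in either eGFP library. The AP-1 subunit FOSL1 fell, with 168 and 118 CPM with the ETV4WT label and 274 and 297 CPM with eGFP (log2 -1.0 ± 0.22). The calls of FOSL1 and EGFR did not hold with every library left out in turn.

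ETS factors, ETV5 among them, changed in both directions. Of 26 tested 3 were higher and 6 lower. Without ETV4WT replicate 2 or eGFP replicate 2, 3 were lower. EHF had 28.1 and 34.3 CPM in the libraries labelled ETV4WT, against 84.3 and 77 CPM in the eGFP libraries (log2 -1.37 ± 0.14), ELF3 had 4.27 and 2.67 CPM with the ETV4WT label and 15.1 and 16.3 CPM with eGFP (log2 -2.17 ± 0.26) and SPDEF had 10.7 and 4.78 CPM with the ETV4WT label and 23.6 and 27.8 CPM with eGFP (log2 -1.72 ± 0.44), all factors known from epithelia, and all below the eGFP libraries in both replicates. The call of SPDEF did not hold with every library left out in turn. The ETS consensus CCGGAAGT was in 5.76% of the promoters of higher genes, 4.8% of those of lower genes and 7.28% of those of all tested genes. Among genes at least 2-fold higher it was in 3.16%, and among genes at least 2-fold lower in 2.36%.

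Several proteases and their regulators rose. Of 18 matrix metalloproteinases and TIMPs 7 were higher and 1 lower (38.9% and 5.56%), and of 7 genes of plasminogen activation 4 and 1. MMP13, a collagenase, had 165 and 190.4 CPM in the libraries labelled ETV4WT, against 85.9 and 81.8 CPM in the eGFP libraries (log2 1.08 ± 0.19). MMP14, which is anchored in the membrane and activates MMP2, had 236 and 155 CPM with the ETV4WT label and 104 and 108 CPM with eGFP (log2 0.89 ± 0.22). MMP3, or stromelysin, had 4.83 and 4.74 CPM with the ETV4WT label and 0.624 and 0.946 CPM with eGFP (log2 2.61 ± 0.25). The inhibitor TIMP3 had 6.37 and 6.07 CPM with the ETV4WT label and 0.805 and 0.752 CPM with eGFP (log2 2.99 ± 0.20). PLAU, the urokinase that activates plasminogen, had 122 and 114 CPM with the ETV4WT label and 64.7 and 66.7 CPM with eGFP (log2 0.85 ± 0.16). Of the plasminogen activation calls only that of PLAU held with every library left out in turn. The neutrophil chemokine CXCL8 had 46.9 and 59.3 CPM with the ETV4WT label and 4.47 and 4.08 CPM with eGFP (log2 3.63 ± 0.22), higher in both libraries labelled ETV4WT than in either eGFP library. MMP14 was the 1 of these 6 whose call did not hold with every library left out in turn.

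Epithelial and prostate identity genes leaned lower. Of 25 epithelial junction genes 3 were higher and 7 lower (median log2 -0.318), and of 15 prostate luminal and androgen receptor genes 3 and 6 (-0.215); the luminal genes summed to 1012 and 821 CPM in the libraries labelled ETV4WT, against 1424 and 1490 CPM in the eGFP libraries. Without eGFP replicate 1, 4 junction genes were lower. P-cadherin, CDH3, had 45.3 and 34.4 CPM in the libraries labelled ETV4WT, against 135 and 149.9 CPM in the eGFP libraries (log2 -1.84 ± 0.20). E-cadherin, CDH1, had 9.9 and 10.1 CPM with the ETV4WT label and 14.8 and 14.5 CPM with eGFP (log2 -0.55 ± 0.12), a call that did not hold with every library left out. The paired splicing factors of epithelial cells moved oppositely: ESRP2 had 25.1 and 20.7 CPM with the ETV4WT label and 66 and 71 CPM with eGFP (log2 -1.58 ± 0.17) and ESRP1 had 37.2 and 50.3 CPM with the ETV4WT label and 20.1 and 19.8 CPM with eGFP (log2 1.13 ± 0.15). FOXA1, the pioneer factor of the androgen receptor, had 58.4 and 65.9 CPM with the ETV4WT label and 166 and 163 CPM with eGFP (log2 -1.4 ± 0.12). The surface protein CD24 had 38.8 and 43.5 CPM with the ETV4WT label and 103 and 101 CPM with eGFP (log2 -1.31 ± 0.14). Of 19 mesenchymal genes 4 were higher and 3 lower: SNAI2, a repressor of E-cadherin, had 26.4 and 29.7 CPM with the ETV4WT label and 10.8 and 11.6 CPM with eGFP (log2 1.33 ± 0.18). TWIST1 had 2.88 and 3.34 CPM with the ETV4WT label and 5.25 and 5.39 CPM with eGFP (log2 -0.78 ± 0.13). Of 11 prostate basal genes 2 were higher and 2 lower, of 18 keratins 2 and 6, of 27 integrin subunits 4 and 4, of 12 laminin chains 2 and 2, and of 38 collagen chains 8 and 4. The lower keratins were 1, 2 and 0 without ETV4WT replicate 2, eGFP replicate 1 and eGFP replicate 2.

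Many genes of DNA replication were lower, though more did not pass. Of 32 replication licensing and fork genes 14 were lower (43.8%) and 0 higher, with a median log2 change of -0.485, and 9 were lower without eGFP replicate 1. The median was below 0 also for nucleotide synthesis (7 of 15 lower, 0 higher, -0.214) and for homologous recombination and Fanconi repair (5 of 19 lower, 0 higher, -0.348). Nucleotide synthesis had 3, 3 and 1 lower genes without ETV4WT replicate 2, eGFP replicate 1 and eGFP replicate 2, and the repair list 1 and 0 without the first and second eGFP library. Of 29 genes of mitosis 4 were lower and 0 higher, and with upper-quartile scaling 2 and 3. ORC1, a subunit of the origin recognition complex, had 24 and 21.6 CPM in the libraries labelled ETV4WT, against 53.7 and 57.4 CPM in the eGFP libraries (log2 -1.29 ± 0.14). FEN1, which processes Okazaki fragments, had 115 and 92.5 CPM with the ETV4WT label and 216 and 216 CPM with eGFP (log2 -1.06 ± 0.13). GINS2, of the replicative helicase, had 46 and 45.1 CPM with the ETV4WT label and 77.2 and 81.4 CPM with eGFP (log2 -0.80 ± 0.11). RRM2, of ribonucleotide reductase, and CDC20, an activator of the anaphase-promoting complex, fell, with log2 changes of -0.54 ± 0.12 and -1.15 ± 0.20, of which that of RRM2 was not called with every library left out. Both libraries labelled ETV4WT were below both eGFP libraries for all 5.

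The E2F site in its form TTTCCCGC was in 5 of 13 promoters of the lower replication genes (38.5%), against 1.66% of all promoters and 2.38% of those of tested genes. Its form TTTGGCGC was in 1 of the 13 (7.69%), against 0.659% of all promoters and 0.941% of those of tested genes. No share was taken for the uncalled replication genes, so the matches describe the group and not the change. The GINS2 promoter, at chr16:85688905-85689204 on the minus strand, is shown with the match in capitals.
GINS2: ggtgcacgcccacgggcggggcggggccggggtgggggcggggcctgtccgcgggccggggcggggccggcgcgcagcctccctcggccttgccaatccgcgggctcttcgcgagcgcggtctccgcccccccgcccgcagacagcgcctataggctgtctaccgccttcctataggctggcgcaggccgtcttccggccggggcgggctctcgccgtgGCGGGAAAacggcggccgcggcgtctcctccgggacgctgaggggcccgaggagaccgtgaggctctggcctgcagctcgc

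Regulators of the G1 phase changed in both directions, with 5 of 26 higher and 9 lower. CCND2, a cyclin D, had 16.3 and 16.3 CPM in the libraries labelled ETV4WT, against 1.89 and 1.74 CPM in the eGFP libraries (log2 3.16 ± 0.25). Its relative CCND1 had 208 and 213 CPM with the ETV4WT label and 331 and 319 CPM with eGFP (log2 -0.63 ± 0.12). CDKN2B, an inhibitor of cyclin D kinases, had 103 and 116 CPM with the ETV4WT label and 39 and 38.7 CPM with eGFP (log2 1.5 ± 0.13). UHRF1, which guides maintenance DNA methylation, had 57.7 and 40.4 CPM with the ETV4WT label and 136 and 147 CPM with eGFP (log2 -1.53 ± 0.28), 1 of 3 lower genes among 7 of DNA methylation. Of 23 Polycomb genes 1 was higher and 3 were lower. The families for methylation and Polycomb were grouped after seeing the values.

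Metabolic lists outside amino acids leaned lower. Of 24 genes of glucose uptake and glycolysis 1 was higher and 9 lower (median log2 -0.468), of 25 of sterol synthesis and uptake 0 and 6 (-0.439), of 14 of fatty acid synthesis 1 and 4 (-0.295), of 15 of the hypoxia response 1 and 4 (-0.295), and of 21 NRF2 and antioxidant genes 1 and 7 (-0.512). The glycolysis count rested on single libraries, with 15 lower without ETV4WT replicate 1 and 3 without ETV4WT replicate 2, eGFP replicate 1 or eGFP replicate 2. In those last 3 fits the sterol list had 3, 3 and 2 lower genes (10 without ETV4WT replicate 1) and the NRF2 list 4, 3 and 3. The glucose transporter SLC2A1 had 35.1 and 27.9 CPM in the libraries labelled ETV4WT, against 77.7 and 82.4 CPM in the eGFP libraries (log2 -1.34 ± 0.17). PFKFB4, which tunes glycolytic flux, had 11.5 and 6.75 CPM with the ETV4WT label and 30.6 and 36.2 CPM with eGFP (log2 -1.87 ± 0.25). The desaturase FADS2 had 284 and 183 CPM with the ETV4WT label and 607 and 667 CPM with eGFP (log2 -1.45 ± 0.24). FASN, the fatty acid synthase, had 156 and 60.6 CPM with the ETV4WT label and 284 and 350.4 CPM with eGFP (log2 -1.55 ± 0.51, edgeR adjusted p = 0.0471), with replicates of ETV4WT far apart and a call that was lost when single libraries were left out. NQO1, an NRF2 target, had 116 and 126 CPM with the ETV4WT label and 192 and 190.4 CPM with eGFP (log2 -0.66 ± 0.13). VEGFA, which both hypoxia and ATF4 are known to induce, was the 1 hypoxia gene higher, with 115 and 99.7 CPM with the ETV4WT label and 48.9 and 49.6 CPM with eGFP (log2 1.13 ± 0.16).

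Ribosome and protein machinery genes changed little. Of 86 cytosolic ribosomal protein genes 2 were higher and 1 lower, of 78 mitochondrial ones 1 and 13 (median log2 -0.211), of 81 respiratory chain subunits 0 and 3, of 13 mitochondrially encoded proteins 0 and 1, and of 37 proteasome subunits 0 and 6. Of 51 translation initiation factor subunits 5 were higher and 6 lower. These counts rested on single libraries as well: without ETV4WT replicate 2, eGFP replicate 1 and eGFP replicate 2 the mitochondrial ribosomal proteins had 2, 2 and 1 lower, the proteasome 0 in each case (10 without ETV4WT replicate 1), and the initiation factors 2 higher in each case and 2, 2 and 1 lower. Ribosome biogenesis stood apart from the ribosomal proteins in its count, with 9 of 19 lower (47.4%) and 0 higher (median -0.358), though 3 were lower without ETV4WT replicate 2 or either eGFP library, and the difference between the lists was not tested.

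**Figure D4:**
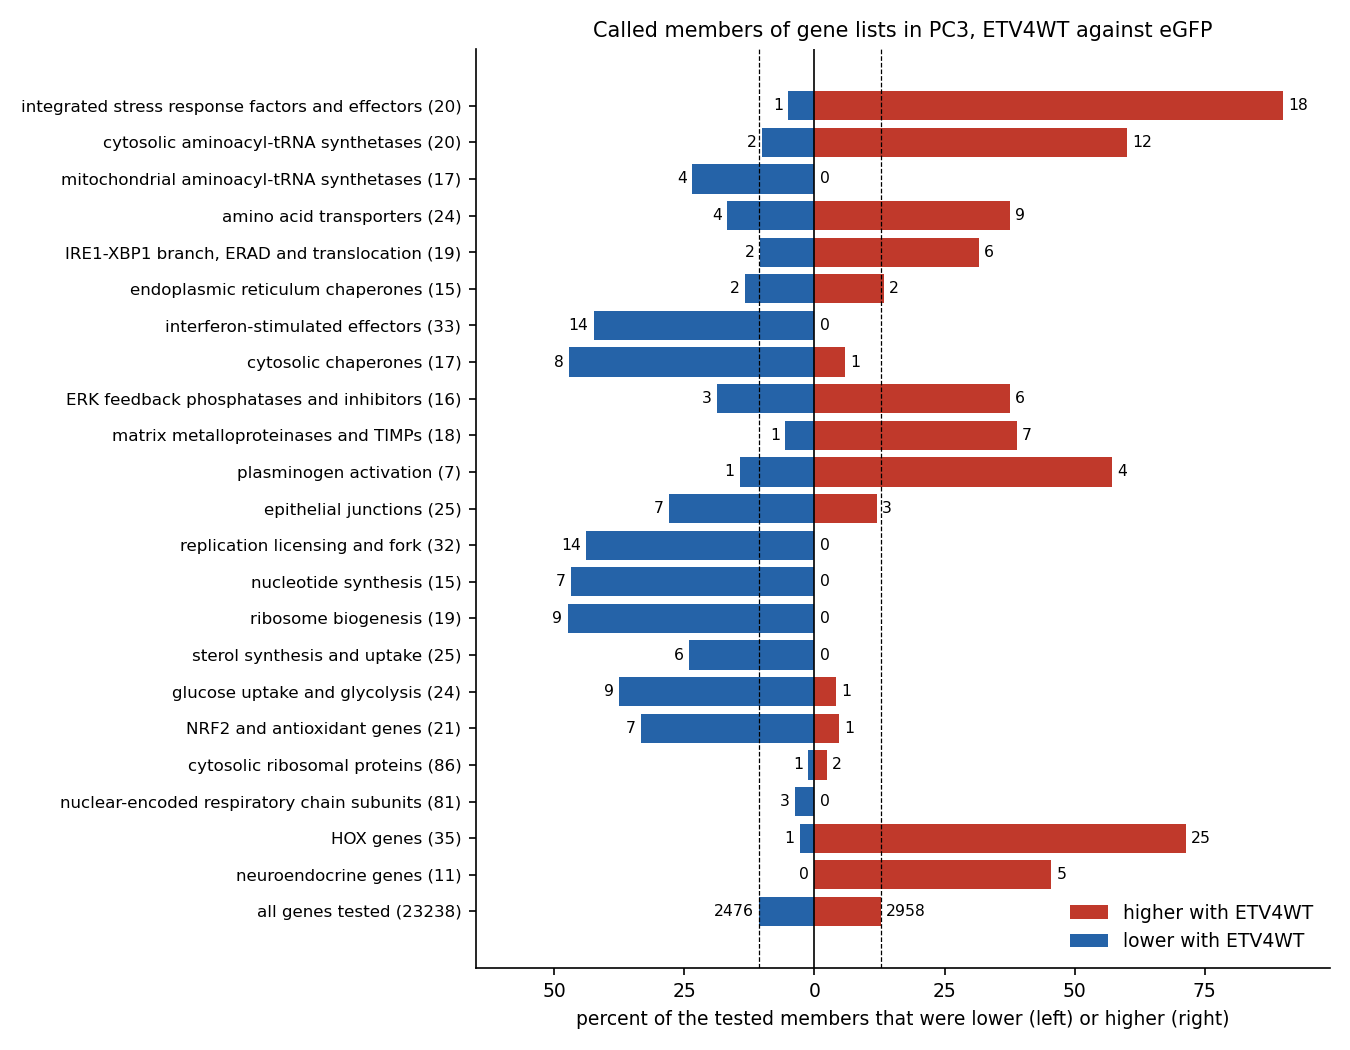
Percent of the tested members of each gene list that were higher (red, right) or lower (blue, left) in the libraries labelled ETV4WT than in the eGFP libraries; numbers at the bars count genes, numbers in brackets give tested members, and dashed lines mark the shares over all genes, 12.7% higher and 10.7% lower. The stress response list stands at 18 of 20 higher and HOX genes at 25 of 35 higher, while interferon-stimulated effectors, replication genes, chaperones and ribosome biogenesis have 42.4% to 47.4% of members lower and at most 1 higher.

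HOX genes, which set position along the body axis, rose across all 4 clusters. Of 35 tested 25 were higher (71.4%) and 1 lower, with a median log2 change of 2.51. By cluster, a grouping made after the values were seen, 6 of 11 HOXA genes were higher and 1 lower, 8 of 9 HOXB genes and 0 lower, 7 of 9 HOXC genes and 0 lower, and 4 of 6 HOXD genes and 0 lower. HOXB9 had 25 and 28.1 CPM in the libraries labelled ETV4WT, against 3.34 and 3.95 CPM in the eGFP libraries (log2 2.86 ± 0.15), HOXC10 had 3.53 and 4.16 CPM with the ETV4WT label and 0.403 and 0.537 CPM with eGFP (log2 3.03 ± 0.21) and HOXD13 had 11.3 and 13.8 CPM with the ETV4WT label and 1.95 and 1.7 CPM with eGFP (log2 2.77 ± 0.23). All of these stood higher in both libraries labelled ETV4WT. The HOX genes that PC3 expressed most did not rise: HOXB13, a prostate factor, had 505 and 377 CPM with the ETV4WT label and 584 and 626 CPM with eGFP and did not pass (edgeR adjusted p = 0.0799), and HOXA13 fell, with 21.7 and 26.8 CPM with the ETV4WT label and 56.3 and 53.6 CPM with eGFP (log2 -1.18 ± 0.15). The median log2 change of the 35 genes was 0.087 in the libraries labelled ETV4AAA and -0.246 in 22Rv1. The changes of HOXB9, HOXC10 and HOXD13 lie in the range of size in which genes of the deleted-locus and HEK293 lists lay, such as STAT3 and IRS4 at log2 3.04 ± 0.15 and 2.68 ± 0.15, and the part of those genes in the HOX result was not tested.

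Neuroendocrine genes, with 5 of 11 higher, 0 lower and a median log2 change of 1.04, summed over 14 listed genes to 134 and 165 CPM in the libraries labelled ETV4WT, against 50.9 and 48.6 CPM in the eGFP libraries. Without either eGFP library 3 were higher. The neurofilament gene NEFM and INA of the HEK293 list rose beside them, at log2 3.22 ± 0.26 and 2.37 ± 0.32, and their part in this result was not tested either. Nor was it tested for the families that follow. Of 488 zinc finger genes named ZNF 85 were higher (17.4%) and 38 lower (7.79%), for example ZNF512, with 7.14 and 9.65 CPM with the ETV4WT label and 1.01 and 1.1 CPM with eGFP (log2 2.99 ± 0.21). Without eGFP replicate 1 and 2 the lower zinc finger genes were 12 and 9. Of 23 receptor tyrosine kinases outside the ERBB family 9 were higher and 2 lower.

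Genes of cell death and survival changed in both directions. Of 16 BCL2 family genes 6 were higher and 5 lower (median log2 -0.416). The lower BCL2 family genes were 2, 0 and 0 without ETV4WT replicate 2, eGFP replicate 1 and eGFP replicate 2. BCL2A1, an inhibitor of cell death, had 4.03 and 5.31 CPM in the libraries labelled ETV4WT, against 0.121 and 0.0215 CPM in the eGFP libraries (log2 5.96 ± 0.42). The inhibitors MCL1 and BCL2L1 rose by log2 0.74 ± 0.13 and 0.94 ± 0.18, and PMAIP1, which encodes the killer NOXA and is also a known ATF4 target, had 206 and 251 CPM with the ETV4WT label and 84.8 and 78.8 CPM with eGFP (log2 1.48 ± 0.16). The part in these changes of the rise of deleted-locus transcripts such as CTNNA1 was not tested.

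Signalling families with members on both sides included 39 genes of the TGF-beta, activin and BMP pathway, with 12 higher and 3 lower (median log2 0.186), 16 of the Notch pathway with 7 and 3, 14 Wnt ligands with 2 and 4, and 10 frizzled receptors with 5 and 2. Of 22 ephrins and Eph receptors 4 were higher and 8 lower, of 29 semaphorins and plexins 6 and 2, and of 31 adenylyl cyclases and phosphodiesterases 7 and 4. Of 304 solute carriers 56 were higher and 52 lower, of 15 S100 genes 2 and 3, and of 6 metallothioneins, whose copies share reads, 2 and 0. Without eGFP replicate 2 the Notch genes had 4 higher. Ephrins and Eph receptors had 5 lower without ETV4WT replicate 2 and 3 without eGFP replicate 2, and frizzled receptors 3 higher without any one of ETV4WT replicate 2 and the eGFP libraries. Solute carriers had 35 higher without eGFP replicate 1, and 29, 24 and 22 lower without ETV4WT replicate 2, eGFP replicate 1 and eGFP replicate 2.

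Noncoding RNAs changed in both directions. Of 4133 long noncoding RNAs 549 were higher (13.3%) and 215 lower (5.2%), against 2213 (14.2%) and 2137 (13.7%) of 15591 protein-coding genes. FLJ46906 had 19.2 and 18.6 CPM in the libraries labelled ETV4WT, against 1.71 and 1.76 CPM in the eGFP libraries (log2 3.44 ± 0.16) and CRNDE, a long noncoding RNA known from colorectal tumours, had 4.14 and 6.47 CPM with the ETV4WT label and 0.805 and 0.752 CPM with eGFP (log2 2.76 ± 0.26), while LINC00857 fell, with 7.66 and 7.88 CPM with the ETV4WT label and 20.5 and 19.7 CPM with eGFP (log2 -1.37 ± 0.18). Of 21 small nucleolar RNA host genes 1 was higher and 5 lower. The lower ones were 2 without any one of ETV4WT replicate 2 and the eGFP libraries. By level, genes of 1 to 5 CPM had 20.9% higher and 10.7% lower, and genes of 20 to 100 CPM 10.2% higher and 15.8% lower. By chromosome, the higher share ran between 7.58% on chromosome 19 and 18.6% on chromosome 18, and the lower share between 5.69% on chromosome 13 and 15.8% on chromosome 11.

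The libraries labelled ETV4AAA were compared with the same eGFP libraries, so the effects of the pair of constructs share their control. The ETV4 transcript, inserted and endogenous together, did not pass with the ETV4AAA label either (log2 0.46 ± 0.33, edgeR adjusted p = 0.495). Nor did it differ between the libraries labelled ETV4WT and ETV4AAA (log2 -0.025 ± 0.33). ETV4AAA gave 858 called genes (3.69%), and 2550 genes (11.0%) differed directly between the libraries labelled ETV4WT and ETV4AAA. Of the 2958 higher genes 1505 differed from ETV4AAA and of the 2476 lower genes 648, and the median log2 changes with ETV4AAA were 0.419 and -0.396 over these sets, beside 1.52 and -0.873 with ETV4WT. Of the 20 stress response factors and effectors 7 were higher with ETV4AAA and 1 was lower. Among the higher ones were SESN2 at log2 1.68 and ATF3 at 1.34 with ETV4AAA. ATF4 was also called with ETV4AAA, at log2 0.52. Other stress genes were not called with that construct: INHBE changed by log2 3.91 ± 0.26 with ETV4WT and 0.49 with ETV4AAA, DDIT3 by 1.67 ± 0.18 and 0.20, and PPP1R15A by 1.33 ± 0.17 and 0.03. HSPA8 changed by -1.53 ± 0.15 and -0.01, and EGR1 by 4.34 ± 0.23 and -0.76. The differences between constructs passed for each of these 5 genes, with an edgeR adjusted p of 9.43e-06 for INHBE, 0.000187 for DDIT3, 0.000385 for PPP1R15A, 4.03e-05 for HSPA8 and 2.22e-06 for EGR1. By contrast, TM4SF1 changed by 1.86 ± 0.13 with ETV4WT and 2.0 with ETV4AAA, and JUN by 1.58 ± 0.17 and 1.52.

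In 22Rv1, where the ETV4 transcript rose by log2 3.95, ETV4WT gave 246 higher genes (1.06%) and 102 lower genes (0.439%). Of the 2958 genes higher in PC3 61 were higher in 22Rv1 (2.06%) and 38 lower (1.28%), and of the 2476 genes lower in PC3 28 were higher (1.13%) and 16 lower (0.646%). The effect itself differed between the lines for 2903 genes (12.5%), among them 1594 of the genes higher in PC3 and 884 of those lower. Several stress response genes had the opposite sign in 22Rv1, with CHAC1 at log2 3.93 ± 0.45 in PC3 and -3.0 in 22Rv1, SLC7A11 at 1.44 ± 0.14 and -1.44, and ASNS at 2.88 ± 0.23 and -1.08. MYL10 rose in both lines, by 5.41 ± 0.26 in PC3 and 6.34 in 22Rv1, as did SPRY4, by 1.09 ± 0.14 and 1.05.

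**Figure D5:**
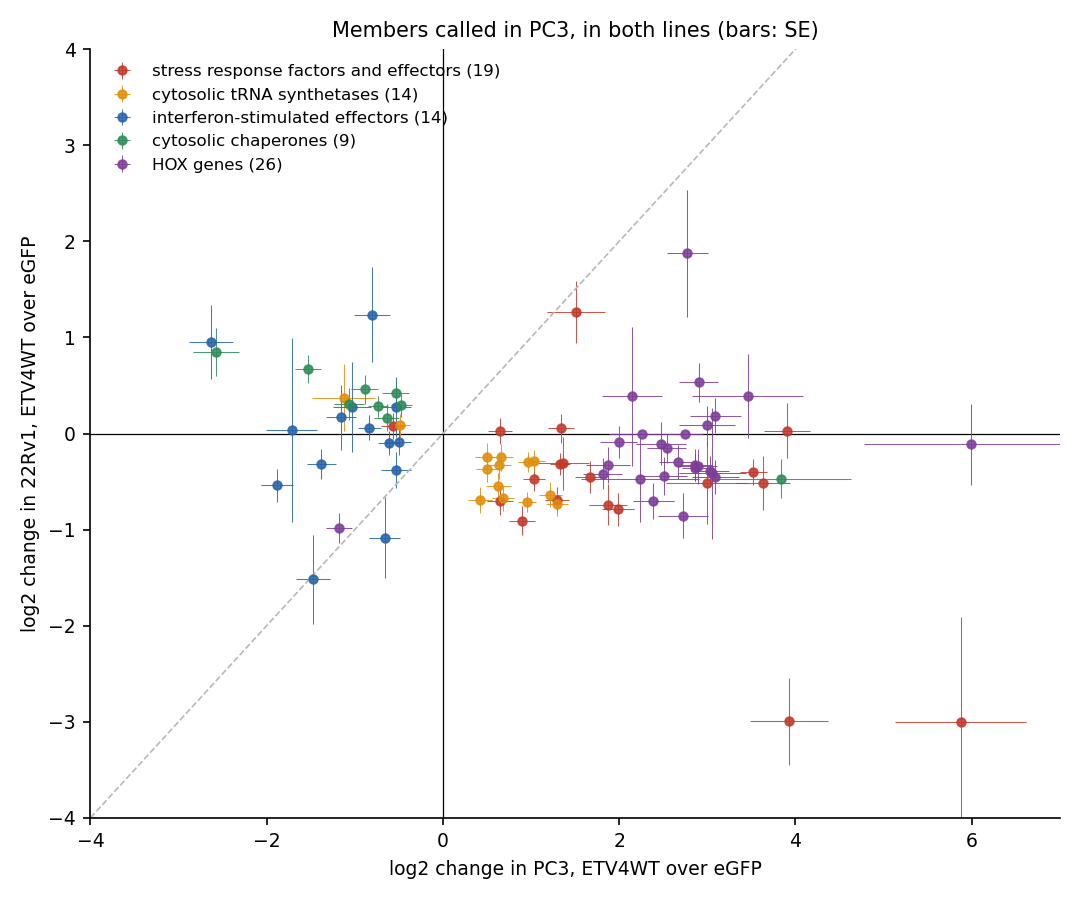
Log2 change of ETV4WT over eGFP in 22Rv1 (vertical axis) against that in PC3 (horizontal axis) for members called in PC3 from 5 gene lists, coloured by list, with bars of 1 SE and a dashed line of equal change. Most stress response factors and cytosolic tRNA synthetases lie to the right and below 0, such as CHAC1 at 3.93 ± 0.45 and -3.0, while ATF5, FARSA and HARS lie to the left. HOX genes lie to the right except HOXA13, at -1.18 ± 0.15 and -0.99.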

How the data were processed

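The authors deposited a table of unnormalised read counts for 58302 Ensembl gene IDs, with 1 column for each of 12 libraries and a different total in each. Per the submitters' processing notes FastQC 0.11.9 and STAR 2.5.3a were used, with GRCh38 as the build. How reads were counted, with which strand setting and annotation release, was not given in the sources used here. Without the strand setting, reads of a gene and its antisense neighbour cannot be told apart. Symbols, gene types and positions are from GENCODE 29, promoters from RefSeq (GRCh38.p14, 250 bases before to 50 after the start), found for 13927 tested genes.

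From the deposited counts, CPM on library sizes scaled by TMM and all tests were computed in R 4.3.3. The filterByExpr function, given the groups, kept 23238 genes, and edgeR 4.0.16 fitted a quasi-likelihood model with 1 mean per group to all 12 libraries, so that 6 groups of 2 share the estimate of spread (6 residual degrees of freedom, biological coefficient of variation 0.149). Calls needed an adjusted p under 0.05 (Benjamini-Hochberg, all 23238 genes). The standard error of a log2 change was taken from it and the F statistic (change over root F), with n = 2 libraries per group throughout. On simulated counts of 22587 genes with 2 libraries per group the fit recovered 85% of 2-fold and 100% of 4-fold changes. The changed genes were drawn only from those above a floor on mean counts, and all groups were given the same spread. The recovery therefore does not cover scarce genes or a spread that differs between groups, such as between ETV4WT and eGFP in PC3.

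The members of the gene lists and families, the groups compared and the naming rule were chosen with earlier results of these data known. Lists are described by counts and medians, with no set test. The rule makes eligible ETV4, ETV1 and ETV5, the 15 largest rises, the 15 largest falls and the 15 most abundant genes changed at least 2-fold, all called with non-overlapping libraries and a mean of at least 5 CPM, the 4 largest rises and falls of long noncoding RNAs, and from each list or family up to 6 called members per direction and up to 2 uncalled members; a selection of 131 genes is named, and some eligible genes are not reported here. FGF21, the deleted-locus and HEK293 lists, the transcription factor families and the size ranges were added after values were seen. The labels do not say that a replicate number marks a shared culture or day, and with 2 numbers the data cannot settle it, so the samples were not paired: in PC3 the deviations of same-numbered libraries from their group means correlated at -0.103 between ETV4WT and eGFP, 0.494 between ETV4WT and ETV4AAA and -0.0979 between ETV4AAA and eGFP. Alternatives tried were size factors of DESeq2, upper-quartile scaling, other count filters, only the PC3 libraries or only the 4 compared, a replicate block, each library left out and the Wald test of DESeq2 1.42.0.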

Additional observations from a re-analysis of the deposited data

Results flagged for a closer look

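The effect of ETV4WT against eGFP differed between PC3 and 22Rv1 for 102 of the 131 genes named, by a test of the difference itself in edgeR's quasi-likelihood model, with adjusted p between 1.58e-06 and 0.0486. The values that follow are the log2 change in PC3 minus that in 22Rv1, so a positive value means a more positive change in PC3, whichever line changed more: 62 are positive and 40 negative. ETV4 rose far more in 22Rv1. In PC3 most genes of the deleted-locus and HEK293 lists were higher in the libraries labelled ETV4WT than in the eGFP libraries. The part of these genes in the differences between lines was not tested.

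Among the PEA3 factors it was -3.52 for ETV4, 0.88 for ETV1 and 2.01 for ETV5. Among the genes with the largest changes it was 9.71 for LRRC15, 6.04 for PROKR1, 4.92 for PDE2A, 5.81 for BEST1, 3.5 for TGM2, -3.15 for ALDH3A1, -2.48 for WNT9A, -2.52 for DDN and -3.53 for CYP1B1. Among the abundant genes it was 1.43 for TM4SF1, 1.01 for FSTL1, 1.33 for CD55, -1.37 for NES, 1.12 for SDC1, 1.85 for HPGD and 2.43 for ERRFI1. The integrated stress response gave 1.51 for ATF4, 2.12 for DDIT3, 3.92 for ATF3, 1.98 for CEBPG, 2.77 for TRIB3, 6.93 for CHAC1, 4.15 for SESN2, 3.88 for INHBE, 3.51 for DDIT4, 1.33 for PPP1R15A, -0.645 for ATF5 and 8.88 for FGF21, whose fitted value rests on 1 count in the eGFP libraries of PC3. For tRNA charging and amino acid genes it came to 2.03 for GARS, 1.86 for CARS, 1.25 for WARS, -0.576 for HARS, 2.32 for PSAT1, 3.96 for ASNS, 2.2 for CTH, -1.65 for ASS1, 2.05 for MTHFD2, 4.02 for ALDH1L2, 2.88 for SLC7A11 and 2.4 for SLC1A4. For the endoplasmic reticulum and autophagy genes it was 2.34 for ERN1, 1.5 for XBP1, 0.904 for ATF6, -0.857 for CALR, 0.919 for MAP1LC3B and -1.56 for SQSTM1. Interferon and antigen presentation genes stood at -3.59 for OAS1, -1.35 for OAS3, -1.32 for IFIT1, -1.06 for CMPK2, -0.896 for PARP9, -1.02 for IRF1, 1.45 for HLA-B and 1.11 for HLA-C.

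The chaperones stood at -2.21 for HSPA8, -3.42 for HSPA1A, -1.38 for HSPA1B and -1.35 for DNAJA1. In the EGF receptor and ERK pathway it was 2.55 for HBEGF, 0.899 for DUSP5, -0.821 for DUSP6, 4.74 for EGR1 and 1.4 for JUN. For epithelial ETS factors it was -1.27 for EHF, -2.38 for ELF3 and -2.18 for SPDEF. Of the proteases and inhibitors, it was 1.31 for MMP14 and 4.61 for TIMP3. Adhesion and identity genes gave 1.43 for ESRP1, -1.5 for ESRP2, -1.77 for CDH3, -2.16 for TWIST1, -1.08 for FOXA1 and -1.15 for CD24. In replication and the cell cycle it was -0.866 for FEN1, -0.923 for ORC1, -0.546 for GINS2, -1.14 for CDC20, -0.591 for CCND1 and 1.65 for CDKN2B. Metabolic genes stood at -1.78 for FADS2, -1.93 for SLC2A1, -2.63 for PFKFB4, 1.28 for VEGFA and -1.22 for NQO1. HOX and zinc finger genes stood at 3.22 for HOXB9, 3.42 for HOXC10 and 2.94 for ZNF512. For the deleted-locus and HEK293 lists it was 2.21 for CTNNA1, 2.81 for STAT3, 2.77 for STAT5B, 3.31 for IRS4, -1.98 for NEFL and 2.88 for ZIC2. Genes of cell death and survival gave 1.96 for PMAIP1, 7.14 for BCL2A1 and 0.879 for MCL1. For noncoding RNAs it was 3.67 for FLJ46906 and 3.09 for CRNDE.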

How the results depend on the processing

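The log2 change of ETV4 ran between -0.12 without ETV4WT replicate 1 and 0.83 without ETV4WT replicate 2; of the 131 genes named 126 were called and 113 were called under every alternative, and no other named gene reversed. Of the 5434 called genes, with 2958 higher, 2476 lower, 1977 at least 2-fold higher and 995 at least 2-fold lower, 4619 were called with the same sign with upper-quartile factors, 4416 with DESeq2 and 5280 with a replicate block. Lower genes numbered 1542 in a fit of the 4 libraries alone and 1383 in a fit of the 6 PC3 libraries, where 627 were at least 2-fold lower; that number was 601 with a floor of 1 CPM in 2 libraries. With the replicate block 6296 genes were called, 3010 higher and 3286 lower, and with the crossed pairing, added after seeing the data because the correlation of same-numbered libraries was -0.103, 7392, 3337 and 4055. Between ETV4WT and ETV4AAA 2517 genes were called with the replicate block, also added after seeing the data, and 2550 without it. Leaving out each library in turn gave 2553 to 6265 called genes, 1684 to 3077 higher, 869 to 3188 lower, 1466 to 1942 at least 2-fold higher and 495 to 1939 at least 2-fold lower. The libraries that moved a count by over 1.5 times were ETV4WT replicate 2 (3253 called, 1206 lower and 495 at least 2-fold lower without it), eGFP replicate 1 (2870, of which 1095 lower), eGFP replicate 2 (2553, of which 1684 higher and 869 lower) and ETV4WT replicate 1 (1939 at least 2-fold lower). Higher genes were 54.4% of calls in the analysis reported, 69.2% with upper-quartile factors, 64.6% with the 1 CPM floor, 64.5% in the 6 PC3 libraries and 66.0% without eGFP replicate 2. With upper-quartile factors 16 list medians between -0.144 and -0.0109 became positive, among them G1 regulators (0.00741), ETS factors (0.0794) and cytosolic ribosomal proteins (0.0636). The cause of these shifts was not tested. Genes under 1 CPM, 1139 of the higher ones, rest on few counts.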

Other observations

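Among transcription factor families grouped after the values were seen, many had members on both sides. All 3 IRX genes tested were higher, as were 4 of 5 ZIC genes with 0 lower, 5 of 9 NKX genes with 1 lower, 6 of 10 POU genes with 1 lower and 12 of 36 FOX genes with 4 lower. Median levels of these families were low. Over the IRX genes the median was 0.576 CPM in the libraries labelled ETV4WT and 0.0611 CPM in the eGFP libraries. In the same order it was 6.26 and 0.675 CPM over the ZIC genes and 0.463 and 0.0624 CPM over the NKX genes. Over the POU genes it was 1.87 and 0.54 CPM, and over the FOX genes 3.54 and 2.52 CPM. Of the sine oculis homeobox genes 0 of 6 were higher and 2 lower, of the TBX genes 1 of 9 and 2, of the SOX genes 4 of 14 and 3, of the KLF genes 4 of 15 and 5, of the E2F genes 2 of 8 and 2, of the GLI genes 1 of 4 and 2 and of the nuclear receptors 5 of 30 and 6. Of the PAX genes 2 of 8 were higher and 0 lower, of the LHX and LMX genes 3 of 8 and 1, of the DLX genes 2 of 6 and 1, of the GATA genes 2 of 4 and 1, and of the STAT genes, which include STAT3 and STAT5B of the deleted-locus list, 3 of 7 and 0. The ZIC family shares ZIC2 with the HEK293 list, and the part of both lists in these counts was not tested.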
